A study of Mus musculus with 6 samples.

Results

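*Trim12a* and 9 related tripartite motif genes on mouse chromosome 7 (*Trim5*, *Trim6*, *Trim12c*, *Trim30a*, *Trim30b*, *Trim30c*, *Trim30d*, *Trim34a* and *Trim34b*) were followed in dental pulp RNA sequencing from wild type (WT) mice and mice lacking matrix metalloproteinase 13. The genes were taken by symbol, 10 of the 53342 genes in the table. *Trim12a* was chosen by its measured fold change, since its counts were almost gone in *Mmp13*-/- pulp, and the others by their place in the same cluster. For this reason the values of *Trim12a* are given as a description without a test, and the question asked was whether the loss was limited to it. There were 3 WT samples (numbered 2, 4 and 5) and 3 *Mmp13*-/- samples (numbered 1, 2 and 6). All 6 came from C57BL/6 mice aged 3 months with no treatment or transgene named, and in the methods of the study the mice were male, the *Mmp13*-/- animals were homozygous for loss of MMP13 on the C57BL/6 background, and each sample was an independent biological sample. The sample labels give molars as the source of the pulp and the methods of the study give incisors, so the tooth is uncertain.

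Total estimated counts were between 28442936 and 29980236 in WT and between 21561420 and 26547121 in *Mmp13*-/-, with *Mmp13*-/- sample 6 the smallest. *Mmp13* itself, on chromosome 9 from 7272514 to 7283331, averaged 969 ± 128 normalized counts in WT against 34.3 ± 27.8 in the knockout (SD, n = 3 each), which is the direction its labels give. Sample 6 stood apart from the other *Mmp13*-/- samples. Its counts differed from theirs with a chi-square of 320 and 414 per degree of freedom, against 41.3 between those samples and 24.2 to 46.3 within WT. Counts over 1949 odorant and vomeronasal receptor genes, which pulp is not known to use, made up 28.3 to 49.1 CPM (counts scaled to the library total) in the WT libraries, and 363, 415 and 1333 CPM in knockout libraries 1, 2 and 6. This rate per kilobase, called the receptor rate below, is set beside the members that were low in the knockout. All 12 pulp and odontoblast markers were found in both genotypes, together with 8 skeletal muscle markers whose summed normalized count was at least 1161660 in each WT sample and at most 518989 in each *Mmp13*-/- sample, so muscle RNA was present in the tissue.

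TRIM proteins are E3 ubiquitin ligases built from a RING domain, a B-box and a coiled coil, and most members of this cluster also carry a B30.2 (SPRY) domain that binds the target. Primate TRIM5 traps incoming retroviral capsids. The mouse has several TRIM5-like genes in its place, among them *Trim5*, *Trim12a*, *Trim12c* and the *Trim30* genes. Many TRIM genes are induced by interferon, and several members of the cluster act in innate signalling: *Trim12c* promotes interferon and NF-κB signalling, and *Trim30a* restrains Toll-like receptor signalling through the TAB proteins. None has a well known function in dental pulp.

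The 10 genes lie between 104218793 and 104507849 on chromosome 7 (GRCm38), a stretch of 289.1 kb. In order along the chromosome they are *Trim6* (104218793 to 104235152), *Trim34a* (104244457 to 104262234), *Trim5* (104263386 to 104288094), *Trim12a* (104299894 to 104315466), *Trim34b* (104329471 to 104336909), *Trim12c* (104338754 to 104353362), *Trim30b* (104355382 to 104369884), *Trim30c* (104382065 to 104400837), *Trim30a* (104409025 to 104465193) and *Trim30d* (104470014 to 104507849). *Trim6*, *Trim34a* and *Trim34b* are on the plus strand and the others on the minus strand.

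*Trim12a*, *Trim12c* and *Trim5* are near copies. The coding length of *Trim12a* in the GENCODE M21 annotation was 894 bases, against 1494 bases in both *Trim12c* and *Trim5*. Over those 894 bases *Trim12a* was identical to *Trim12c* at 861 (96.3%) and to *Trim5* at 867 (97.0%). The stretch below, from coding position 119 to 178, is shown because it holds 6 differences between *Trim12a* and *Trim12c*, the gene that fell and the copy that rose. Capitals mark the bases that differ, so reads over it can be told apart.
Trim12a: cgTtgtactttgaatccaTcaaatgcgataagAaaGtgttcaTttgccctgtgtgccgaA
Trim12c: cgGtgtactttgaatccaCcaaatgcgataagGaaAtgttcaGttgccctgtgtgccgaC

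*Trim34a* and *Trim34b* were closer still, with 1441 of 1458 coding bases identical (98.8%). The next stretch, coding position 93 to 152, is shown because no other stretch of 60 bases held more differences between these copies. Its 4 differing bases are in capitals.
Trim34a: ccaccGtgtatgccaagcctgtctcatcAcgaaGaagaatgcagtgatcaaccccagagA
Trim34b: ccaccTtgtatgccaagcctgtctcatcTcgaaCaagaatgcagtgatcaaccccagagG

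Of windows of 100 bases in the transcripts of each gene, 3.29% were also found in transcripts of another gene for *Trim12a*, 8.05% for *Trim12c* and 11.7% for *Trim5*. The share was 39.0% for *Trim34a* and 30.5% for *Trim34b*, and it was 4.41% for *Trim30a* and 4.57% for *Trim30d*. No window of *Trim6*, *Trim30b* or *Trim30c* was shared. Over the coding sequence alone the shares were larger for the near copies, at 13.8% for *Trim12a*, 16.2% for *Trim12c*, 21.4% for *Trim5* and 36.7% for both *Trim34* genes. How reads that match 2 genes were divided is not given in the sources used here, so the values of these copies are uncertain, most of all those of *Trim34a* and *Trim34b*.

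The promoters of *Trim12a*, *Trim5* and *Trim12c* are printed because these genes moved in opposite directions from nearly the same sequence. Each run is the RefSeq promoter on GRCm38.p6, minus strand, from 250 bases before to 50 after an annotated start. Capitals mark the core of the interferon-stimulated response element, the binding sequence of interferon-activated factors, searched as GAAA, any 2 bases and GAAA again on both strands.
Trim12a (chr7:104315446-104315745): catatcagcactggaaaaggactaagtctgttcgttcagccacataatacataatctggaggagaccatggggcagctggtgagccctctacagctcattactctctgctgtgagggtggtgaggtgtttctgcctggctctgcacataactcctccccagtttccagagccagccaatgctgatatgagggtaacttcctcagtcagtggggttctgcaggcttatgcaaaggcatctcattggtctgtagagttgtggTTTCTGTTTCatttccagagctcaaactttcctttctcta
Trim5 (chr7:104288057-104288356): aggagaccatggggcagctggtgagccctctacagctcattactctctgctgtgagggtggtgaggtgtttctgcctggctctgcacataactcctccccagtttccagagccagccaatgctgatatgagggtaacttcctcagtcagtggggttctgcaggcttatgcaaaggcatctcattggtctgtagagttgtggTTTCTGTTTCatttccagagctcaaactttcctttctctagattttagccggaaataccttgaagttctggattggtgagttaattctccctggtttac
Trim12c (chr7:104353300-104353599): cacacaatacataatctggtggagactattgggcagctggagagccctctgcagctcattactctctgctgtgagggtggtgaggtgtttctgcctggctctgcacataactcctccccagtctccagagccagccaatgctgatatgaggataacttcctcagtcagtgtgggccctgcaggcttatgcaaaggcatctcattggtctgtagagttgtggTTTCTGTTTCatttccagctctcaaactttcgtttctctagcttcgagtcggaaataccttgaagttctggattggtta

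Where these windows overlap, the *Trim12a* and *Trim5* promoters were identical at all 241 aligned bases, and those of *Trim12a* and *Trim12c* at 247 of 260 (95%). The same core, TTTCTGTTTC, stood in all 3. A match was also found in the promoters of *Trim34a*, *Trim30a* and *Trim30d*, and none in those of *Trim6*, *Trim34b*, *Trim30b* and *Trim30c*. Of 32851 promoters of the same length, 3.44% held the core. The match stood in genes of each kind: *Trim12c* and *Trim30a*, which hold it, rose, *Trim12a* and *Trim5* fell, and *Trim34a* and *Trim30d* were not called. *Trim34b* and *Trim30b* rose without it in these windows. The part of this element in the changes was not tested. The STAT-binding element TTCNNNGAA, found in 8.3% of promoters, had 1 match among the members, in *Trim30c*.

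*Trim12a* was lost from *Mmp13*-/- pulp. WT samples 2, 4 and 5 held 324, 281 and 285 estimated counts, whereas *Mmp13*-/- samples 1, 2 and 6 held 3.74, 8.96 and 5.52. The WT samples lay close together and every *Mmp13*-/- sample was far below them. Scaled for library size, this was 285 ± 20.7 against 6.73 ± 3.02 normalized counts (SD, n = 3 each), a log2 fold change of −5.38 (SE 0.30), or 41.7-fold lower. This was the lowest log2 fold change of the 24534 genes tested, with *Gm42047* (−5.29), *Mmp13* (−4.96) and *Tpbgl* (−3.44) after it. The counts left in *Mmp13*-/- samples 1, 2 and 6 were 0.402, 0.831 and 0.196 times the counts that the receptor rate would give over the exons of *Trim12a*. Over this length its remaining level was therefore no higher than that of genes taken as background. That depends on the length used, since all annotated exons of *Trim12a* make 5781 bases and its longest coding transcript 1531. In bulk samples, fewer cells of a type and less RNA per cell cannot be told apart.

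**Figure D1:**
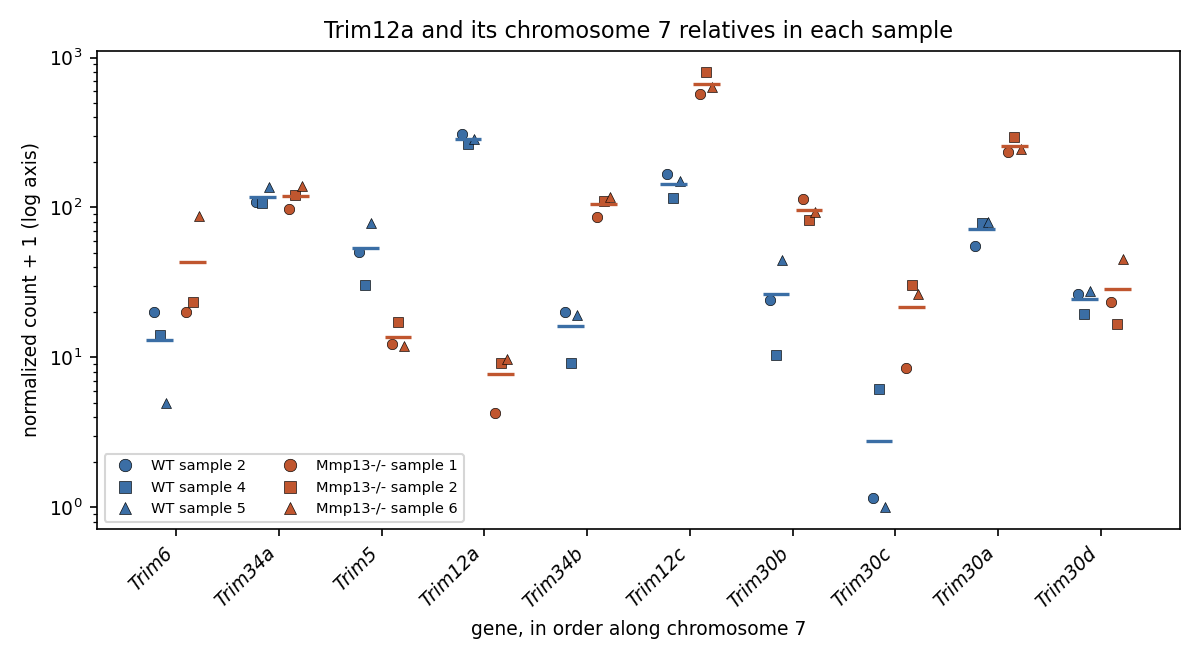
Normalized count plus 1 (log axis) of each of the 10 genes in the 6 samples, in order along chromosome 7, with blue for WT, orange for *Mmp13*-/- and a line at each group's mean. *Trim12a* fell from 285 to 6.73 and *Trim5* from 52.3 to 12.8, while *Trim34b*, *Trim12c*, *Trim30b*, *Trim30c* and *Trim30a* had every *Mmp13*-/- sample above every WT sample.

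Of the 9 relatives, 8 had enough counts to be tested and *Trim30c* did not. A gene was called when edgeR's quasi-likelihood test gave it a Benjamini-Hochberg adjusted p under 0.05 and its change was over 2-fold. Of the relatives, 1 was lower (*Trim5*), 4 were higher (*Trim12c*, *Trim34b*, *Trim30a* and *Trim30b*) and 3 were not called (*Trim6*, *Trim34a* and *Trim30d*). Over all genes tested, 9.68% were called lower and 20.4% higher. The median log2 fold change was 1.82 over the 8 relatives tested and 0.10 over all genes. The filter asks for a minimum count in at least 3 samples. *Trim34b*, *Trim30b* and *Trim6* did not reach it in every WT sample and needed their knockout counts to be tested. *Trim5* did not reach it in every knockout sample and was tested through its WT counts. For these genes the filter favoured the direction in which they moved, and the counts and the median carry that limit. By sample, 5 of the 9 relatives had every *Mmp13*-/- sample above every WT sample, 1 had every one below, and 3 overlapped. Among all genes tested, 31.8% were above and 29.1% below in the same sense. With 3 samples against 3, an exact permutation test of a single gene cannot give a two-sided p below 0.1.

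**Figure D2:**
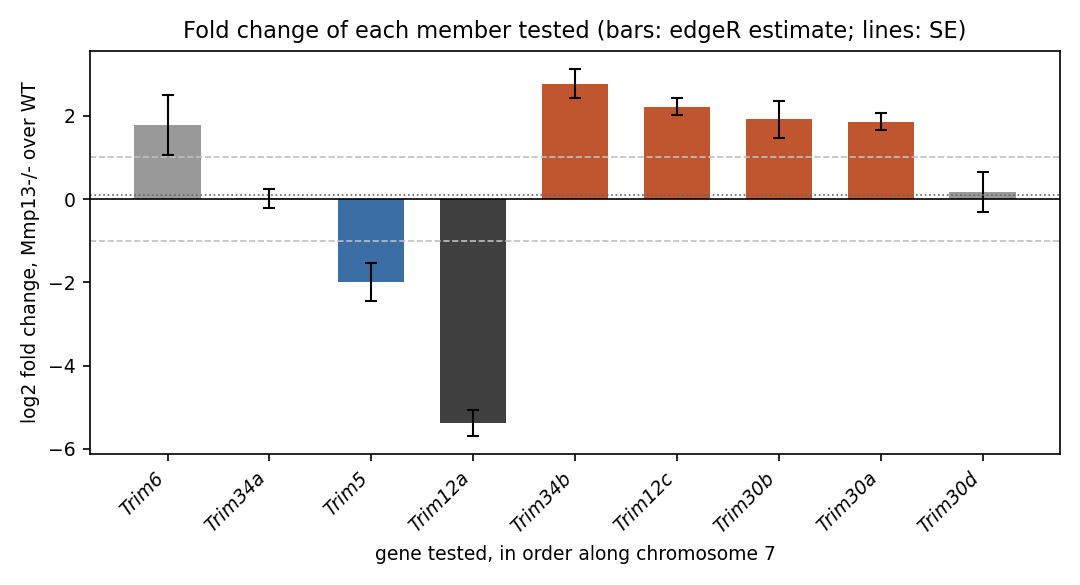
Log2 fold change, *Mmp13*-/- over WT, of the 9 members with enough counts, in order along chromosome 7, with bars for the edgeR estimate and lines for its SE. Blue was called lower, orange higher, light grey not called, and dark grey is *Trim12a* (−5.38), which carries no test. Dashed lines mark a 2-fold change and the dotted line the median of all genes (0.10).

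*Trim5*, the near copy next to *Trim12a*, was the other gene that fell. The WT samples held 52.4, 31.4 and 78.0 counts of it, the *Mmp13*-/- samples 12.9, 17.7 and 6.85. The groups did not overlap, but the WT samples were spread over more than 2-fold. Normalized counts went from 52.3 ± 24.3 to 12.8 ± 3.00 (SD, n = 3 each), with a log2 fold change of −1.98 (SE 0.46, edgeR adjusted p = 0.00523), or 3.95-fold lower. Its 95% interval was −3.01 to −0.96. The counts of *Trim5* in *Mmp13*-/- samples 1, 2 and 6 were 2.17, 2.58 and 0.382 times the receptor rate over its exons. In sample 6 it was therefore below the genes taken as background. Of its shared windows, 120 matched *Trim12a* and 258 matched *Trim12c*. The part that divided reads had in the fall of *Trim5* was not tested. With a gene-by-gene test of equal variance on the deposited log2 values, the nearest to the procedure of the study, whose variance assumption is not stated, its adjusted p was 0.0542 and the call was lost.

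*Trim12c*, the other near copy, rose. From 175, 121 and 149 counts in the WT samples it reached 657, 868 and 402 without MMP13. Every *Mmp13*-/- sample was above every WT sample, with the lowest count among the *Mmp13*-/- samples in the smallest library. Normalized counts rose from 143 ± 26.0 to 667 ± 115 (SD, n = 3 each), with a log2 fold change of 2.23 (SE 0.20, 95% interval 1.79 to 2.66, edgeR adjusted p = 6.03e-05).

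Seen as a pair, *Trim12a* and *Trim12c* exchanged places. *Trim12a* held 64.9%, 69.9% and 65.7% of the pair's counts in WT samples 2, 4 and 5, but 0.605%, 1.03% and 1.47% in the knockout samples 1, 2 and 6. The widest 95% Wilson interval was 65.2% to 74.2% among the WT samples (sample 4) and 0.676% to 3.17% among the others (sample 6), for counting error only and as a description of precision, since *Trim12a* was chosen for its fall. The summed normalized count of the pair did not fall with *Trim12a*: it was 428 ± 46.4 against 673 ± 117 in the knockout (SD, n = 3 each). *Trim12c* made up 29.6% ± 1.96 of *Trim12a*, *Trim12c* and *Trim5* together in WT, and 97.1% ± 0.324 in the knockout (SD, n = 3 each). *Trim12a* and *Trim12c* had 37 windows of 100 bases in common, and the part of divided reads in this exchange was not tested.

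**Figure D3:**
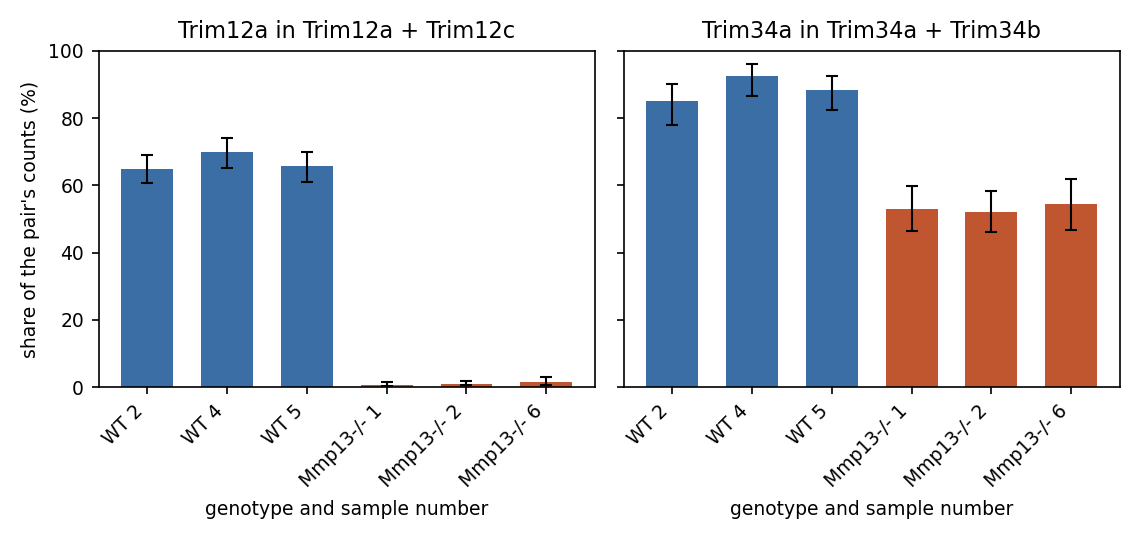
Share (%) of the counts of *Trim12a* plus *Trim12c* held by *Trim12a* (left) and of *Trim34a* plus *Trim34b* held by *Trim34a* (right) in each sample, with blue bars for WT, orange bars for *Mmp13*-/- and lines for 95% Wilson intervals. *Trim12a* fell from 64.9% or more to 1.47% or less, and *Trim34a* from 85.1% or more to 54.3% or less.

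*Trim34a* and *Trim34b*, a pair of interferon-inducible copies on either side of *Trim5* and *Trim12a*, differed in their response. *Trim34b* was low in the WT samples, at 20.4, 8.64 and 18.1 counts, and reached 98.3, 120 and 73.8 in the knockout. The groups did not overlap, and normalized counts rose from 15.2 ± 6.11 to 104 ± 16.5 (SD, n = 3 each). Its log2 fold change of 2.77 (SE 0.35, 95% interval 1.98 to 3.56, edgeR adjusted p = 0.000243) was the highest of the relatives tested. *Trim34b* did not reach the filter's limit in every WT sample and needed its knockout counts to be tested, which favoured a call upward. *Trim34a*, at 114, 113 and 136 counts in the WT samples, was at 111, 131 and 87.5 in the knockout, and its groups overlapped. Normalized counts were 116 ± 16.6 and 118 ± 21.2 (SD, n = 3 each), and the log2 fold change was 0.02, with a 95% interval of −0.47 to 0.51 (edgeR adjusted p = 0.956). The 95% intervals of the 2 copies did not overlap. The share of *Trim34a* in the pair went from 85.1%, 92.6% and 88.3% in the WT samples to 53.1%, 52.2% and 54.3% in *Mmp13*-/-. Since 563 windows of 100 bases were common to both copies, the division of counts within this pair is uncertain, whereas its sum, 132 ± 20.1 for WT against 222 ± 37.5 for the knockout (SD, n = 3 each), does not depend on that division. *Trim34a* shared a further 482 windows with *Gm47248* (ENSMUSG00000111737), an annotated antisense gene over its end (104261465 to 104262174), and with the strand setting unknown the sum is uncertain to that extent. *Gm47248* had 12.5, 6.5 and 5.25 counts in the WT samples and 0, 1 and 0 in the knockout.

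Of the *Trim30* genes, 2 were called higher. *Trim30a*, a negative regulator of Toll-like receptor signalling, had 58.0, 82.7 and 79.0 counts in the WT samples, against 270, 320 and 153 in the knockout. The groups were well apart. Normalized, it rose from 70.4 ± 13.6 to 257 ± 31.4 (SD, n = 3 each), a log2 fold change of 1.86 (SE 0.21, 95% interval 1.39 to 2.33, edgeR adjusted p = 0.000153).

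*Trim30b* varied more, from 24.6, 9.93 and 43.4 counts in the WT samples to 130, 89.5 and 58.3 in the knockout. It also needed its knockout counts to pass the filter, which favoured a call upward. All *Mmp13*-/- samples were above WT, by little in sample 6 before scaling, where the count was 1.59 times the receptor rate over its exons. Normalized counts went from 25.3 ± 17.1 to 95.8 ± 15.9 (SD, n = 3 each), a log2 fold change of 1.92 (SE 0.45, edgeR adjusted p = 0.00547). After a correction for GC content it was 1.36 with an edgeR adjusted p of 0.0535, and the call was lost.

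*Trim30c* was barely detected. Only 0.156, 5.49 and 0 counts fell on it in the WT samples, against 8.61, 32.4 and 16.02 in the knockout, and it was too low for the test. Every *Mmp13*-/- sample was above every WT sample, but 2 of the WT samples were under the floor of 3 counts, so no fold is given. Its counts in *Mmp13*-/- samples 1, 2 and 6 were 3.11, 10.1 and 1.92 times the receptor rate over its exons. *Trim30d* showed no detectable difference, at 27.1, 19.5 and 27.0 counts in the WT samples against 25.7, 17.1 and 28.0 in the knockout. Its groups overlapped. The log2 fold change was 0.18, with a 95% interval of −0.90 to 1.25 (edgeR adjusted p = 0.780), so that a change of 2-fold upward is within the interval. The *Trim30d* counts in *Mmp13*-/- samples 1, 2 and 6 were 4.25, 2.45 and 1.54 times the receptor rate over its exons.

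*Trim6*, at the far end of the cluster and known from work in human cells for a part in interferon signalling, was not called. The WT samples held 20.2, 14.0 and 4 counts, the knockout samples 21.8, 24.4 and 54.5, and scaled to library size the groups overlapped. Normalized counts were 12.1 ± 7.62 and 42.6 ± 38.0 (SD, n = 3 each), a log2 fold change of 1.77 (SE 0.72, edgeR adjusted p = 0.0620). *Mmp13*-/- sample 6 set most of this difference, and without it the log2 fold change was 0.76 (edgeR adjusted p = 0.287). The *Mmp13*-/- counts were 2.29 to 2.77 times the receptor rate over its exons.

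Per kilobase of the longest coding transcript, *Trim12a* was the highest member in WT, at 186 ± 13.5 normalized counts (SD, n = 3). It was followed by *Trim34a* at 44.9 ± 6.42, *Trim12c* at 38.1 ± 6.96, *Trim30a* at 18.7 ± 3.61 and *Trim5* at 14.3 ± 6.64 (SD, n = 3 each), and the other 5 had means from 1.03 to 8.30. The samples of *Trim12a* were apart from those of *Trim34a*, and those of *Trim12c* from those of *Trim30a*, and all other neighbours in this order overlapped. When all annotated exons were used as the length instead, *Trim12a* was at 49.3 ± 3.57 (SD, n = 3) and overlapped *Trim34a*.

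In *Mmp13*-/- the order was led by *Trim12c*, at 178 ± 30.6 normalized counts per kilobase (SD, n = 3). *Trim30a* at 68.1 ± 8.32, *Trim34b* at 56.9 ± 9.05 and *Trim34a* at 45.7 ± 8.19 (SD, n = 3 each) came next, with *Trim34b* overlapping both others. The samples of *Trim12c* were apart from those of *Trim30a*, and those of *Trim34a* from those of *Trim30b*. *Trim12a* at 4.39 ± 1.97 and *Trim5* at 3.49 ± 0.820 (SD, n = 3 each) had the lowest means. The samples of *Trim12a* overlapped those of *Trim5* and of *Trim30d*. When all annotated exons were used as the length, *Trim12a* was the lowest at 1.16 ± 0.523, apart from *Trim5* at 3.46 ± 0.812 (SD, n = 3 each). Over all 10 genes the summed normalized count was 745 ± 88.2 for WT against 1352 ± 169 for the knockout (SD, n = 3 each). Every *Mmp13*-/- sample, at 1163 or more, was above every WT sample, at 818 or less, so the cluster as a whole took a larger part of the libraries although its highest WT gene was lost.

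Few genes beside the cluster could be examined for a loss of the same kind. Of 162 other genes in the table within 1 Mb of it, 17 passed the filter on low counts. Of these, 11 had under 10 counts in every WT sample and passed through their knockout counts, so they could not have been called lower. Of the other 6, 0 were called lower and 3 higher by edgeR's quasi-likelihood test, against 9.68% and 20.4% of all genes. The 3 were the globin genes *Hbb-bt* (log2 fold change 2.76) and *Hbb-bs* (3.28), which erythroid cells express, and *Gm23973* (2.38). *Gm23973* had 8, 20 and 10 counts in the WT samples and also needed its knockout counts to pass the filter. *Gm5901* (−0.17), *Fam160a2* (−0.45) and *Cavin3* (−0.92) were not called. *Cavin3*, which encodes a caveolar coat protein, and *Fam160a2* passed the adjusted p (edgeR, 0.00066 and 0.0178) but not the 2-fold limit. DESeq2 and limma called 0 lower. *Cavin3* passed 2-fold and was called lower without WT sample 2 (−1.08), without *Mmp13*-/- sample 2 (−1.03) and with no filter (−1.03). Its edgeR adjusted p was 0.00118 or less in each of these.

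The 11 genes near 0 in WT were 8 odorant receptor genes (*Olfr620*, *Olfr635*, *Olfr642*, *Olfr646*, *Olfr650-ps1*, *Olfr659*, *Olfr676* and *Olfr683*), the ion channel gene *Cnga4*, the cholecystokinin receptor gene *Cckbr* and *Gm45667*. All were called higher, a direction that the filter fixed. Of the 8 receptor genes, 7 had 0 counts in every WT sample, another 95 in the window were not tested, and all belong to the genes used as background. Among untested genes that overlap a member, *Gm47248* was lower in every *Mmp13*-/- sample, as given above, and was called lower with no filter and in the procedure nearest to that of the study. *Gm16464*, a pseudogene within *Trim30d*, had 7, 16.1 and 17.4 counts in the WT samples and 7, 5 and 5 in the knockout. *Gm15133*, an annotated gene on the opposite strand that overlaps the start of *Trim12a*, had at most 5.52 counts in any sample and was not tested. Whether the counting used strand is not given in the sources used here.

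**Figure D4:**
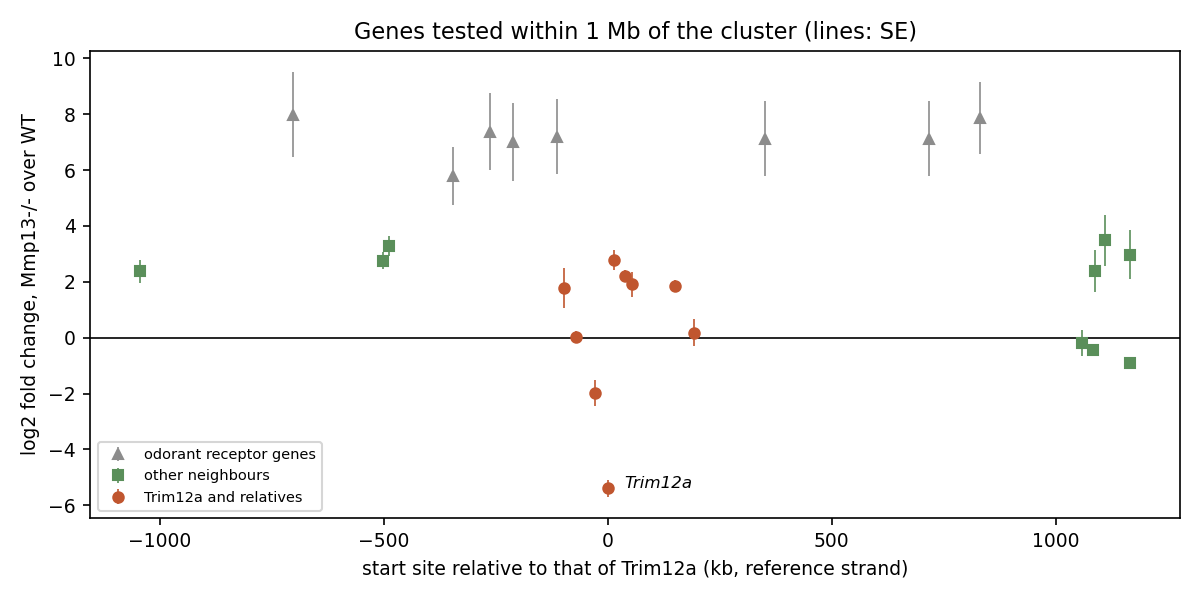
Log2 fold change, *Mmp13*-/- over WT, of the genes tested in and within 1 Mb of the cluster against the distance of their start sites from that of *Trim12a* (kb), with lines for the SE. *Trim12a* at −5.38 and *Trim5* at −1.98 were the members below 0, and the 8 odorant receptor genes between 5.79 and 7.98 were at or near 0 counts in WT.

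Among other genes, *Tpbgl*, also on chromosome 7, had the pattern most like that of *Trim12a* over the 6 samples (Pearson r of log2 CPM 0.999), going from 523 ± 41.4 to 48.7 ± 12.6 normalized counts (SD, n = 3 each). *Rita1*, *Trp53i11*, *Mapk7* and *Nlrx1* came next and fell far less, with log2 fold changes of −1.12, −0.94, −0.98 and −1.06. *Nlrx1* encodes a mitochondrial regulator of antiviral signalling. The samples form 2 separate groups of 3, so this r mostly describes how cleanly the genotypes differ. Among the members, the r with *Trim12a* was 0.91 for *Trim5* and between −0.96 and −0.86 for *Trim12c*, *Trim30a*, *Trim34b* and *Trim30b*.

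Other TRIM genes were called in both directions. Of the 58 other *Trim* genes, 50 were tested, of which 14 were called lower and 12 higher. These were 28% and 24%, against 9.68% and 20.4% of all genes, so the share called higher was near that of all genes. The median log2 fold change was −0.37. Among the 12 were 2 genes, *Trim42* and *Trim52*, under 3 counts in every WT sample, which passed the filter through the knockout. The number called lower was 8 with upper-quartile factors and 3 after the GC correction, which moved the median to 0.11, and the number called higher was 7 with background subtracted and 4 in the procedure nearest to that of the study. The 4 with the smallest adjusted p all fell: *Trim63* (−1.57) and *Trim54* (−2.04), which act in striated muscle, and *Trim7* (−1.502) and *Trim3* (−1.24). Muscle markers fell with them, 6 of 8 lower with a median of −1.66 (2 after the GC correction and 1 in the procedure nearest to that of the study), and the part of muscle RNA in these values was not tested.

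Interferon-stimulated genes were also called higher. Of 38 listed, 18 were called higher, against 20.4% of all genes, and 0 lower by edgeR's quasi-likelihood test, with a median log2 fold change of 1.02, and 23 had an adjusted p under 0.05. At an unadjusted p under 0.05, 0 were lower, and DESeq2 and limma called 0 lower as well. The ubiquitin ligase gene *Herc6* rose from 85.9 ± 10.2 to 286 ± 40.5 normalized counts (SD, n = 3 each) and the antiviral gene *Rsad2* from 152 ± 37.1 to 477 ± 122 (SD, n = 3 each). *Ifit3* and *Ifit3b*, whose proteins bind viral RNA or its sensors, had log2 fold changes of 2.61 and 2.03, and as near copies may share reads. The number called higher was 11 without *Mmp13*-/- sample 6, 12 with limma on the deposited log2 values and 5 in the procedure nearest to that of the study. Of 14 retroviral restriction factors, the class of antiviral genes to which primate TRIM5 belongs, 2 were called higher and 0 lower. These were 14.3% and 0%, against 20.4% and 9.68% of all genes. The 2 genes, *Ifitm1* (1.28) and *Serinc3* (1.05), are therefore given as values only. The median of the list was 0.08 against 0.10 for all genes. At an unadjusted p under 0.05, 4 were lower, among them *Trex1* (−0.93) and *Trim28* (−0.78), which passed the adjusted p but not the 2-fold limit, and DESeq2 and limma called 0 lower.

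Of 20 genes whose products work with TRIM5 or TRIM30 proteins in signalling or autophagy, 3 were lower and 2 higher (15% and 10%, against 9.68% and 20.4% of all genes), with a median log2 fold change of −0.28. These shares were near or below those of all genes, so the members that follow are given as values only. *Ube2v2*, a ubiquitin-conjugating enzyme variant, was at 2.07. *Tab1*, a subunit of the TAK1 kinase complex, was at −1.22, and the autophagy genes *Ulk1* and *Sqstm1* were at −1.30 and −1.15. After the GC correction none of the 20 was called lower.

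Markers of blood cells were also called higher, against 20.4% of all genes. Of 12 macrophage and monocyte markers 7 were called higher (median log2 fold change 1.28), of 10 neutrophil markers 10 (2.42), of 10 lymphocyte markers tested 8 (1.86), of 8 dendritic cell markers 4 (1.02) and of 8 erythroid markers 5 (1.55), with 0 lower in each list by edgeR's quasi-likelihood test, DESeq2 or limma, and 0 at an unadjusted p under 0.05. In the procedure nearest to that of the study the numbers higher were 6, 6, 3, 2 and 3 in the same order. The summed normalized count of the macrophage list was between 4726 and 5232 in WT and between 10632 and 18776 in *Mmp13*-/-, and that of the lymphocyte list between 244 and 377 in WT and between 918 and 1170 in *Mmp13*-/-. The neutrophil list went from at most 7907 to at least 20140 and the erythroid list from at most 39900 to at least 57899, while the dendritic cell list overlapped, at 1343 to 2286 in WT and 1744 to 2061 in *Mmp13*-/-. No marker of these lists was under 3 counts in every WT sample, but some were low there. With at least 10 counts required in every sample, 6 lymphocyte markers were tested and 4 called higher. Of the dendritic cell markers 7 were then tested and 3 called higher, and the other 3 lists kept their numbers. *Cd3e* of T cells rose most among the lymphocyte markers named, from 4.15 ± 3.82 to 107 ± 27.5 normalized counts (SD, n = 3 each). *Cd3e* passed the filter through its knockout counts, so it could not have been called lower. The part of blood cells in the rise of *Trim12c*, *Trim34b*, *Trim30a* and *Trim30b* was not tested. *Trim12a* and *Trim5* went down while these markers went up. Of the 12 pulp and odontoblast markers, 4 were lower and 3 higher (33.3% and 25%, against 9.68% and 20.4% of all genes). Their median was −0.37, and 0.27 after the GC correction. Their summed normalized count was at least 2117700 in each WT sample and at most 942141 in each *Mmp13*-/- sample.

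**Figure D5:**
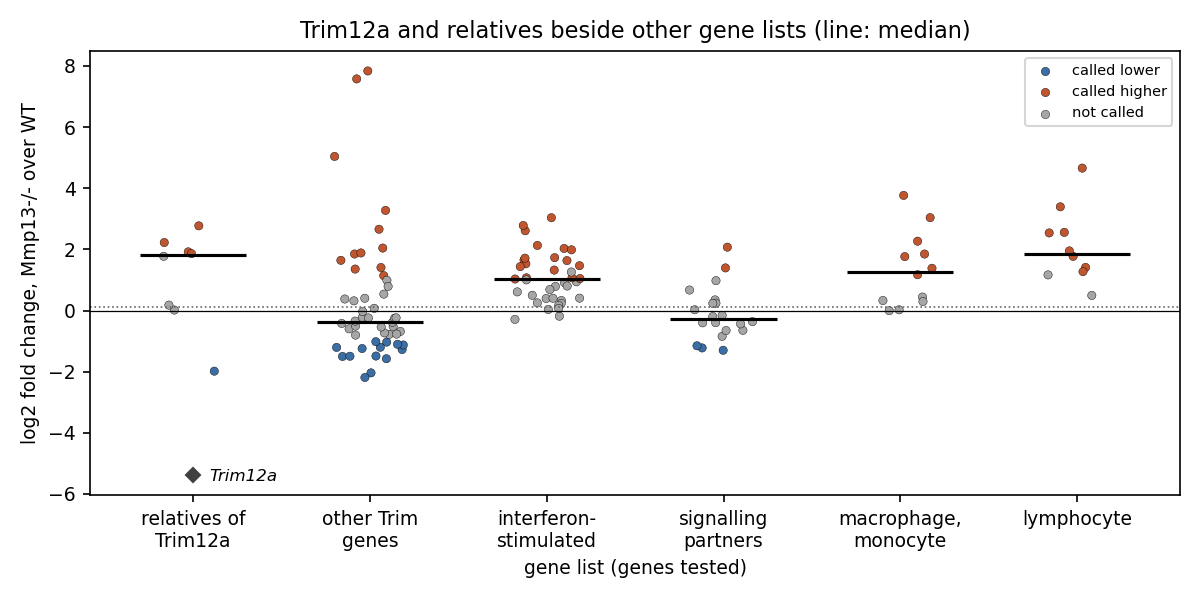
Log2 fold change, *Mmp13*-/- over WT, of the tested relatives of *Trim12a* beside 5 other gene lists, with a point for each gene, a line at each median and the dotted line at the median of all genes (0.10). The median was 1.82 for the relatives, −0.37 for other *Trim* genes, 1.02 for interferon-stimulated genes, −0.28 for signalling partners, 1.28 for macrophage and monocyte markers and 1.86 for lymphocyte markers; the diamond is *Trim12a*.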

How the data were processed

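The deposited table holds, for each gene and sample, estimated counts made by the authors with Strand-NGS version 4.0 (65.5% are not whole) and the authors' normalized log2 values. Reads were paired, from an Illumina HiSeq. The submitters' processing notes name mm10 and DESeq. The aligner and strand setting are not given in the sources used here. Columns of the authors' own comparisons were not used.

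Estimated counts were rounded, filtered with filterByExpr, scaled by TMM (the trimmed mean of M values) and tested with edgeR 4.0.16 (quasi-likelihood test, R 4.3.3) over 24534 genes with Benjamini-Hochberg adjustment. The design was genotype only. Normalized counts are counts scaled to the mean effective library. Alternatives used limma 3.58.1 and DESeq2 1.42.0. The GC correction took a loess fit of log2 ratios on exon GC content (span 0.4) as offsets, and the background subtraction took the receptor rate per kilobase of exon from each gene. The code was tested on simulated counts. Of the gene identifiers, 99.8% matched GENCODE M21. The transcripts of all 10 members were found there and RefSeq promoters for all 10.

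The members and all gene lists were chosen with earlier results of these data known. All members were named, with the called neighbours, the 5 genes most like *Trim12a* and the 4 genes of each list with the smallest adjusted p where a result turned on them. The floor is 3 counts, at most 0.139 CPM.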

Additional observations from a re-analysis of the deposited data

How the results depend on the processing

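No paired analysis was possible because the genotypes share only the replicate number 2. Calls and fold changes were recomputed under up to 17 alternatives, fewer where a filter removed the gene, and pair shares, the order per kilobase and correlations were not. The median of the relatives ranged from 1.28 to 2.06. *Trim12c* (log2 fold change 1.72 to 2.44), *Trim34b* (2.44 to 2.99) and *Trim30a* (1.20 to 2.07) were called wherever they were tested. *Trim12a* ranged from −5.65 to −5.07 with samples left out, reached −11.08 with background reads subtracted, and had no value where at least 10 counts were required in every sample. The number of relatives called lower was 0 with that filter, which did not test *Trim5*, and 0 in the procedure nearest to that of the study (*Trim5* adjusted p 0.0542), where *Trim30b* was also lost (2.11, adjusted p 0.102). *Trim6* passed with total counts (1.72, edgeR adjusted p 0.00444), no filter (1.64), DESeq2 (1.82), and without *Mmp13*-/- sample 1 (2.06) or 2 (2.03). *Trim30c*, with no filter, had an edgeR adjusted p of 0.00221, and, where the filter let it through, of 0.0601 without WT sample 2 or 5, 0.0107 without WT sample 4 and 0.0114 without *Mmp13*-/- sample 1. Without *Mmp13*-/- sample 6, and with background subtracted, 1 relative was again lower and 4 higher.

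The sign of *Trim34a* turned with no filter (−0.10), limma on the log2 values (−0.043), the procedure of the study (−0.043), GC correction (−0.14), and without WT sample 2 (−0.11) or 4 (−0.09) or *Mmp13*-/- sample 2 (−0.05) or 6 (−0.11), with −0.11 to 0.085 over the samples left out. That of *Trim30d* turned without WT sample 4 (−0.0031) or *Mmp13*-/- sample 6 (−0.31), with GC correction (−0.31) and with background subtracted (−0.53), with −0.31 to 0.41 over the samples left out. Neither was called in any setting, and the cause was not tested.

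Neighbours called higher numbered 2 with at least 10 counts in every sample, 99 without a filter, 25 in the procedure of the study, 5 with background subtracted, and 13 to 38 with a sample left out. Those called lower numbered 2 without a filter (*Gm47248* and *Cavin3*), 1 in the procedure of the study (*Gm47248*), and 0 to 1 with a sample left out (*Cavin3*). The number tested changed with these filters. Upper-quartile factors moved the median of all genes from 0.10 to 0.32 and the genes called lower and higher from 2375 and 5006 to 1338 and 5867. GC correction gave 683 and 4189, total counts 1762 and 5975. Leaving out WT sample 2 took the lymphocyte markers called higher from 8 to 5. Low counts, as in *Trim30c* and *Trim6*, limit what these libraries can show.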
